A study of Mus musculus with 4 samples.

Results

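Egr1, Egr2, Egr3, Nr4a1, Nr4a2, Nr4a3, Klf2, Klf4, Klf6 and Ier2 are early-response genes, and they are described here across 4 Affymetrix 1-colour arrays of primary mouse embryonic fibroblasts. These 10 genes, of 18193 genes with a probe set that carries a single symbol, were chosen on signals measured on these same arrays. Every probe set annotated with exactly 1 of these symbols was taken, which gave 24 probe sets. The upper 60% of all probe sets by mean signal over the 4 arrays were kept for fitting, which held 20 of the 24. The remaining 4, of which 2 read Nr4a2 and 2 read Nr4a3, are given as values only.

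The cells came from 2 independent lines of wild-type and 2 lines of RBP2-/- embryonic fibroblasts, all at passage 3, with 1 array of biotin-labelled total RNA per line. RBP2 is the retinoblastoma binding protein now named Kdm5a, a demethylase of lysine 4 on histone H3, and the study asked how its inactivation changes gene expression. The sources used here give neither the strain, nor how the allele was made, nor which part of Kdm5a it lacks, and no serum or drug treatment is named. Titles number the lines of each genotype 1 and 2, and nothing says that a number marks a litter, a day or a batch, so the lines numbered 2 were set against the lines numbered 1 only as labelled. Nothing names the embryos behind each line, so a p-value covers no more than the variation among the lines at hand.

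Early-response genes are switched on within minutes when growth factors, serum or stress reach a resting cell, without new protein synthesis, and their messages are short-lived. Egr proteins are zinc finger factors that bind GC-rich sites, Nr4a proteins are orphan nuclear receptors whose activity is set mainly by how much is made, and Klf proteins are zinc finger factors of differentiation and growth arrest. In fibroblasts, signals through ERK and through actin converge on the serum response factor SRF at several of these promoters, while CREB and MEF2 act at Nr4a promoters.

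Promoter sequences, the stretches where such factors bind, are printed for members that differed most by line number (Nr4a1, Nr4a2, Klf4) and for a bright member that differed little (Klf6). Egr2 is printed as the only member, of those with a window, in which the SRF box was matched. RefSeq windows on GRCm38.p6, from 250 bases before to 50 after each start, were held for 7 of the members, in 11 windows of which 5 are Egr2 starts. Egr1, Egr3 and Ier2 were not matched. Capitals mark the motifs searched on both strands, which were TGACG (the half-site of the CREB element), TGACGTCA (the full element), GCGNGGGCG (the EGR site), AAAGGTCA (the Nr4a element NBRE), the SRF CArG box and the MEF2 site. The full CREB element contains the half-site, so those matches overlap. The windows are chr15:101266596-101266895 on the plus strand for Nr4a1, chr2:57123954-57124253 on the minus strand for Nr4a2, chr4:55532426-55532725 on the minus strand for Klf4, chr13:5861239-5861538 on the plus strand for Klf6 and chr10:67537619-67537918 on the plus strand for Egr2, each 5′ to 3′.
Nr4a1: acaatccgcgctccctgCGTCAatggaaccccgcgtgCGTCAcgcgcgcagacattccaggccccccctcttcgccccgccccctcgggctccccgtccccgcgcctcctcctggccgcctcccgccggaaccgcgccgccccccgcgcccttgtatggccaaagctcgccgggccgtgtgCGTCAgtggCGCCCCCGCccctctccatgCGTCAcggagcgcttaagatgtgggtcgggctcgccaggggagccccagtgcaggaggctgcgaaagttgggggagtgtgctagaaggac
Nr4a2: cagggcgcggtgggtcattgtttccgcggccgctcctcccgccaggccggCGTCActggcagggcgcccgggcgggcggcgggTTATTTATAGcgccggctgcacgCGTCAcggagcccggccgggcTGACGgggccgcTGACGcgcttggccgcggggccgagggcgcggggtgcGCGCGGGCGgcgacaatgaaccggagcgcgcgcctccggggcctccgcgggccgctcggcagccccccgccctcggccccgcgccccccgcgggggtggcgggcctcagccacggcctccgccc
Klf4: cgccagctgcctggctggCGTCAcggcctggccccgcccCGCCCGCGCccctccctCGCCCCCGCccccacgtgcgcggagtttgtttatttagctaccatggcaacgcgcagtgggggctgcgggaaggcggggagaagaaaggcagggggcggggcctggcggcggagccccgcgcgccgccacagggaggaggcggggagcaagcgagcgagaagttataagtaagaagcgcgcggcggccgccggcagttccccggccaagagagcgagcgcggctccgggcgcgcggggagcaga
Klf6: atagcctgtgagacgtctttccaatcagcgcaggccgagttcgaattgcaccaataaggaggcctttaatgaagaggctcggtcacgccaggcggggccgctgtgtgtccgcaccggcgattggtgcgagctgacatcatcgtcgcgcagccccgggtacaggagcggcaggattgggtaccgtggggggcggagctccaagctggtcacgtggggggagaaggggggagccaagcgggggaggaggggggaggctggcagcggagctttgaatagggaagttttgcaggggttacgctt
Egr2: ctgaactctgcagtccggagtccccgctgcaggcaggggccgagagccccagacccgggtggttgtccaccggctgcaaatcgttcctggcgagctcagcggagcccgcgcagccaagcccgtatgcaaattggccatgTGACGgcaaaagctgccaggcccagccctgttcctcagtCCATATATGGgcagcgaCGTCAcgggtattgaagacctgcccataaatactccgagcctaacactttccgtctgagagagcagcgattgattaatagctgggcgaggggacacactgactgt

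The CREB half-site was in 8 of the 11 member windows and in 20.8% of all 32851 promoter windows of this length. Overlapping Egr2 windows that share the same matches are among the 8, so these are not separate promoters. Nr4a1, Nr4a2 and Nr4a3 held 4 matches each, the printed Egr2 window held 2, Klf2 and Klf4 held 1 each, and Klf6 held none of the motifs. The EGR site was in the windows of Nr4a1, Nr4a2, Klf2 and Klf4, with 2 matches in Klf4, and in 5.55% of all windows. The CArG box was in 4 of the 5 Egr2 windows, several of which overlap, and in 1.63% of all windows. The MEF2 site was in the Nr4a2 and Klf2 windows and in 3.19% of all. The full CREB element and the NBRE, in 1.79% and 1.51% of all windows, had no match in these windows. A match shows only that the letters are present.

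The arrays differed in overall brightness, with trimmed mean signals from 61.7 to 152, and both lines numbered 2 were brighter than the line numbered 1 of their genotype. Values were therefore quantile normalized, which gives every array the same distribution, and 9 was added before taking log2. Across kept probe sets, wild-type line 1 correlated with the other arrays at 0.923 to 0.925, and the others correlated among themselves at 0.946 to 0.963, so wild-type line 1 stood apart. Kdm5a, the targeted gene, had normalized log2 signals of 6.72 and 7.65 in wild-type lines 1 and 2 and 6.40 and 6.49 in RBP2-null lines 1 and 2. Xist was high in wild-type line 1 and RBP2-null line 2, at 10.68 and 10.23, against 6.22 and 5.88 in the other lines, and the Y-linked Eif2s3y, Uty and Kdm5d ran the opposite way. Each genotype and each line number thus held 1 line of either pattern.

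Fibroblast markers were bright in sum, with summed normalized signals of 43170, 48470, 44860 and 48440 over 10 genes in wild-type lines 1 and 2 and RBP2-null lines 1 and 2. Of these 10, 5 were higher and 1 was lower in both lines numbered 2. Over all kept probe sets, 20.3% lay higher and 20.7% lower in this way, the shares beside which the counts below stand. Among the higher ones, Pdgfra was dim in wild-type line 1, with log2 signals of 5.72, 8.93, 7.47 and 8.84 in the same order. Its line-number difference was 2.29 ± 0.47 (SE). Endothelial cells also express Klf2 and Klf4, and the sum over 8 endothelial markers was 211, 197, 253 and 187 in the same order, with Pecam1 and Tie1 below the filter. Of the 6 kept endothelial markers, 2 lay higher and 2 lower in both lines numbered 2. The sum over 8 macrophage markers was 554, 407, 345 and 372, with Ptprc and Cd68 below the filter and, of the 6 kept, 1 higher and 4 lower in both lines numbered 2. Of the 5 smooth muscle markers, 3 were lower and 1 was higher in both lines numbered 2, and their sums were 17240, 13670, 16950 and 13420. The part of these markers in the results below was not tested, and fewer cells of a type cannot be told apart from less RNA per cell.

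By line number, the members lay mostly to the side of the lines numbered 2. On the brightest probe set of each gene, the difference of lines 2 minus lines 1 was above 0 for 8 members and below 0 for 2 (Egr2 and Nr4a3), with a median log2 difference of 0.61, where the median over all 27022 kept probe sets was -0.00011. Without scaling Egr2 and Nr4a3 had 0.64 and 0.086, which is -0.095 and -0.65 relative to the shift of 0.73 in the median of all probe sets there, and with arrays centred on their medians Egr2 had 0.11, or -0.087 relative to that shift. Both arrays numbered 2 lay above both numbered 1 for 7 of the 10 brightest probe sets and for 12 of the 20 kept ones, against 20.3% of all kept probe sets. Both lay below for 0 of the 20, against 20.7% of all. These shares describe the choice of the members and support nothing beyond it.

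**Figure D1:**
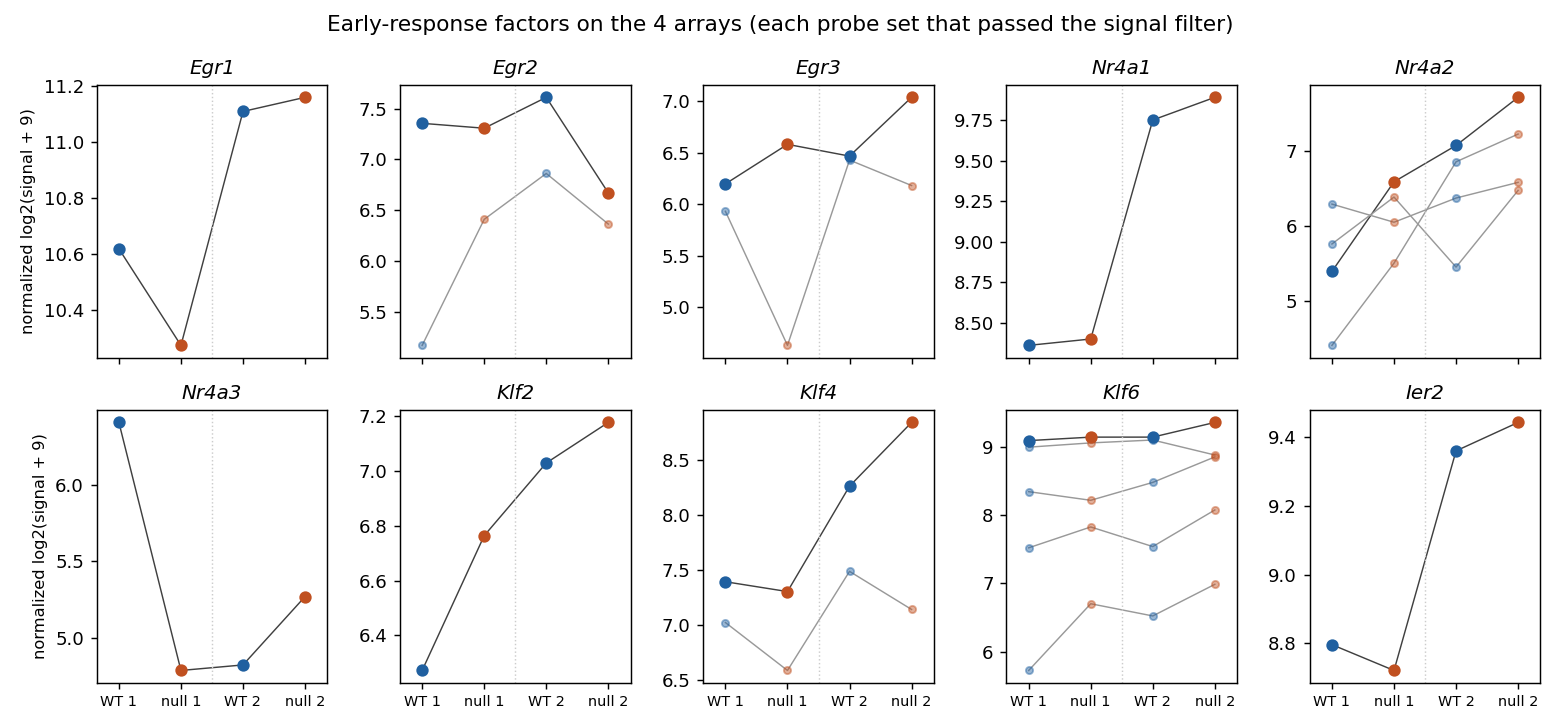
Normalized log2 signal (y axis, a different range in each panel) of the 10 genes on the 4 arrays, with wild type in blue and RBP2-null in orange, the lines numbered 1 on the left and those numbered 2 on the right. Large points are the brightest kept probe set and small pale points the other kept ones. Nr4a1 sits at 8.36 and 8.40 in the lines numbered 1 and at 9.75 and 9.89 in those numbered 2.

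Limma, which pools the spread over all probe sets, called 0 of the 20 kept member probe sets at an adjusted p of 0.05 by line number, where 0.0037% of all kept probe sets were called, a single one that reads Fos. At an unadjusted p under 0.05, 7 of the 20 were higher in the lines numbered 2, against 5.11% of all, and 0 were lower, against 4.29% of all. These 7 read Egr1, Egr3, Nr4a1, Nr4a2 with 2 probe sets, Klf4 and Ier2. Since the members were chosen with these differences known, the counts are descriptions, and the standard errors below serve to show the spread.

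Egr1, the zinc finger factor induced by growth factors in most cell types, had deposited signals of 944.6 and 2268 in wild-type lines 1 and 2 and of 1043 and 3284 in RBP2-null lines 1 and 2. After normalization its log2 signal was 10.62 and 11.11 in wild type and 10.27 and 11.16 in RBP2-null cells. Both lines numbered 2 lay above both numbered 1 and close to each other, while the genotypes overlapped. The difference by line number was 0.69 ± 0.15 (SE, n = 2 lines against 2), or 1.61-fold, with 0.49 between the wild-type lines and 0.89 between the RBP2-null lines. By genotype it was -0.15 ± 0.30 (SE).

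Egr2, also named Krox20 and known for its role in myelination, was read by 2 probe sets that did not order the lines alike. The brighter had normalized log2 signals of 7.36 and 7.61 in wild-type lines 1 and 2 and of 7.31 and 6.67 in RBP2-null lines 1 and 2. RBP2-null line 2 was low and the other lines were close together, so the line-number difference was 0.26 in wild type and -0.64 in RBP2-null cells, or -0.19 ± 0.31 (SE) over both. The dimmer probe set had 5.17, 6.86, 6.41 and 6.36 in the same order of lines, with only wild-type line 1 low. Its difference by line number was 0.82 ± 0.42 (SE), of which 1.69 came between the wild-type lines and -0.047 between the RBP2-null lines.

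Egr3, a relative of Egr1 that acts in muscle spindles and lymphocytes, also had 2 probe sets. The brighter had log2 signals of 6.20, 6.47, 6.58 and 7.04 in wild-type lines 1 and 2 and RBP2-null lines 1 and 2, so that line 2 exceeded line 1 within each genotype but the line-number groups overlapped. The difference was 0.36 ± 0.29 (SE) by line number and 0.48 ± 0.29 (SE) by genotype. The dimmer had 5.93, 6.43, 4.63 and 6.18, low in RBP2-null line 1, with 1.02 ± 0.44 (SE) by line number and -0.77 ± 0.50 (SE) by genotype. The probe sets of Egr3 thus had genotype values of opposite sign, neither of them called.

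Nr4a1, the orphan receptor Nur77, differed by line number by a similar amount in both genotypes. Its deposited signal was 194.6 and 874.3 in wild-type lines 1 and 2 and 264.1 and 1435 in RBP2-null lines 1 and 2, a ratio of 4.49 and of 5.43. Over all kept probe sets the median ratio of line 2 to line 1 was 1.56 in wild type and 1.99 in RBP2-null cells, and the 95th percentile was 3.63 and 4.61. In rank, Nr4a1 stood at 929 and 997 of 27022 in these 2 genotypes.

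On the normalized scale Nr4a1 had 8.36 and 8.40 in the lines numbered 1 and 9.75 and 9.89 in those numbered 2, the first of each pair being wild type. Lines of the same number were nearly equal across genotypes. The difference by line number was 1.44 ± 0.16 (SE), which is 2.71-fold, and the adjusted p from limma was 0.0576, above the threshold. It was 1.39 between the wild-type lines and 1.49 between the RBP2-null lines, and 0.089 ± 0.53 (SE) by genotype. The adjusted p of Nr4a1 lay on both sides of the threshold under other settings. It was 0.0423 with a pseudocount of 32, 0.0337 over the upper 40% of probe sets and 0.00276 without scaling, against 0.0713 with a pseudocount of 1, 0.146 without the filter and 0.0607 with median-centred arrays. Nr4a1 was chosen with its values on these arrays known, so these adjusted p-values are descriptions and support nothing beyond that choice. With an array left out the difference by line number ran from 1.37 to 1.51.

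Nr4a2, the receptor Nurr1 of dopamine neurons, was read by 6 probe sets, of which 4 were kept. The brightest had deposited signals of 25.3 and 129.9 in wild-type lines 1 and 2 and of 65.5 and 318.6 in RBP2-null lines 1 and 2. Its normalized log2 signals of 5.39, 7.08, 6.59 and 7.72 in that order placed both lines numbered 2 above both numbered 1. The difference by line number was 1.41 ± 0.41 (SE), or 2.66-fold, and by genotype 0.92 ± 0.55 (SE). Without wild-type line 1 these were 0.81 and 0.079.

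The second Nr4a2 probe set, of a type that can bind several transcripts, had deposited signals of 9.6, 109.5, 26.5 and 222.2 in the same order. Its signal in wild-type line 1 was close to the pseudocount. The difference by line number was 2.09 ± 0.40 (SE), the highest of all kept member probe sets, or 4.27-fold. The third Nr4a2 probe set had 0.31 ± 0.27 (SE), again with both lines numbered 2 above. The fourth ran otherwise, with deposited signals of 32.8, 34.7, 55.8 and 125.6, a line-number difference of -0.11 ± 0.40 (SE) and a genotype difference of 0.83 ± 0.31 (SE). The 2 Nr4a2 probe sets below the filter had deposited signals of 4.0, 28.8, 24.5 and 4.8 and of 5.5, 9.9, 1.6 and 28.9, so the probe sets of Nr4a2 did not share 1 pattern.

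Nr4a3, the receptor Nor1, was dim on all 3 of its probe sets. The kept one had deposited signals of 50.4 and 19.5 in wild-type lines 1 and 2 and of 13.6 and 44.1 in RBP2-null lines 1 and 2. After normalization its log2 signals were 6.41, 4.82, 4.79 and 5.27 in the same order. Wild-type line 1 and, by less, RBP2-null line 2 were the higher ones, so the groups overlapped in both comparisons. These are also the lines in which Xist was high, at 10.68 and 10.23, and the part of the lines' sex in this value was not tested. The difference of line 2 minus line 1 was -1.58 in wild type and 0.48 in RBP2-null cells, or -0.55 ± 0.55 (SE) over both, and -0.59 ± 0.55 (SE) by genotype. The probe sets of Nr4a3 below the filter had deposited signals of 8.1, 37.5, 10.2 and 24 and of 7.0, 8.1, 5.2 and 6.7, the first of them higher in both lines numbered 2 and the second without such an order after normalization.

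Klf2, a factor of quiescence in T cells and endothelium, had deposited signals of 46.1 and 125.2 in wild-type lines 1 and 2 and of 75.2 and 214.2 in RBP2-null lines 1 and 2. Its normalized log2 signals were 6.27, 7.03, 6.76 and 7.18 in that order, with both lines numbered 2 above both numbered 1. The difference was 0.58 ± 0.26 (SE) by line number, or 1.5-fold, with 0.76 in wild type and 0.41 in RBP2-null cells, and 0.32 ± 0.33 (SE) by genotype. It was 0.34 without wild-type line 1.

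Klf4, one of the factors used to reprogram fibroblasts to pluripotency, had deposited signals of 98.2 and 307.2 in wild-type lines 1 and 2 and of 114.7 and 702.3 in RBP2-null lines 1 and 2. Its normalized log2 signals were 7.39, 8.26, 7.30 and 8.85 in that order. The lines numbered 1 were nearly equal and RBP2-null line 2 was the highest. The difference by line number was 1.21 ± 0.23 (SE), or 2.31-fold, with 0.87 between the wild-type lines and 1.54 between the RBP2-null lines, and 0.25 ± 0.48 (SE) by genotype. The other Klf4 probe set, dimmer, had 0.51 ± 0.26 (SE) by line number, also with both lines numbered 2 above, and -0.39 ± 0.30 (SE) by genotype. Of the markers of pluripotent cells, 0 of 4 passed the filter.

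Klf6, a broadly expressed factor linked to growth restraint, differed little between lines on its bright probe sets. The brightest of its 5 kept probe sets had log2 signals of 9.10 and 9.15 in wild-type lines 1 and 2 and of 9.15 and 9.36 in RBP2-null lines 1 and 2. Wild-type line 2 and RBP2-null line 1 were level, so although the lines numbered 2 counted as above, the gap between the groups was far smaller than the standard error. The difference was 0.13 ± 0.16 (SE) by line number and 0.13 ± 0.20 (SE) by genotype. The other Klf6 probe sets had line-number differences from -0.036 to 0.54, and the value of -0.036 turned to 0.062 relative to the median shift without scaling and 0.071 with median-centred arrays. The 2 dimmest, of types that can bind several transcripts, lay above both wild-type arrays in both RBP2-null lines. Their genotype differences were 0.42 ± 0.24 and 0.72 ± 0.34 (SE). The brighter Klf6 probe sets had 0.13, -0.079 and 0.12 by genotype, and on each of them the genotypes overlapped.

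Ier2, a small nuclear protein gene of the immediate-early class, had deposited signals of 262.0 and 674.2 in wild-type lines 1 and 2 and of 336.9 and 1062 in RBP2-null lines 1 and 2. Its normalized log2 signals were 8.80, 9.36, 8.72 and 9.44 in that order, with both lines numbered 2 well above both numbered 1. The difference by line number was 0.64 ± 0.16 (SE), or 1.56-fold, with 0.56 in wild type and 0.72 in RBP2-null cells. By genotype it was 0.0039 ± 0.30 (SE), so lines of the same number were nearly level across genotypes, as for Nr4a1.

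Within genotypes, the brightest probe sets had a median difference of line 2 minus line 1 of 0.53 in wild type and 0.60 in RBP2-null cells. It was above 0 in both genotypes for 8 of the 10 members, and Egr2 and Nr4a3 differed in sign between genotypes. With each array left out in turn, the line-number difference ranged from 1.37 to 1.51 for Nr4a1, from 0.60 to 0.68 for Ier2, from 0.52 to 0.86 for Egr1 and from 0.92 to 1.5 for Klf4. For the brightest Nr4a2 probe set it ranged from 0.81 to 2.01.

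**Figure D2:**
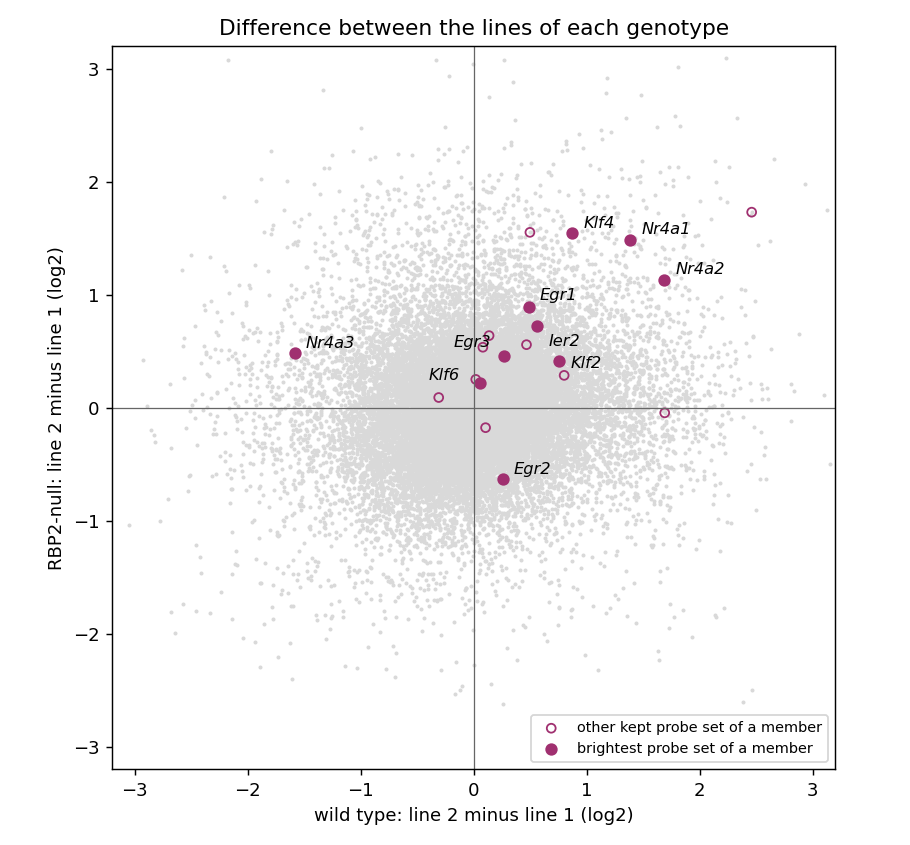
Log2 difference of line 2 minus line 1 in wild type (x axis) and in RBP2-null cells (y axis) for all kept probe sets (grey, with 15 outside the axes), with the brightest probe set of each of the 10 genes as filled points and the other kept ones as open points. Nr4a1 lies at 1.39 and 1.49, while Nr4a3 at -1.58 and 0.48 and Egr2 at 0.26 and -0.64 lie where the genotypes differ in sign.

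By genotype, the members did not lie to 1 side. The brightest probe sets had a median log2 difference of RBP2-null minus wild type of 0.11, with 7 above and 3 below 0, where the median over all kept probe sets was 0.0029. The median was -0.12 without wild-type line 1 and -0.27 without RBP2-null line 2, so its sign rested on single arrays. Limma called 0 of the 20 kept probe sets at an adjusted p of 0.05, where 0.0037% of all were called, a single one that reads Cxcl12. At an unadjusted p under 0.05 there was 1 of the 20, the fourth Nr4a2 probe set, against 2.96% of all.

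Both RBP2-null arrays lay above both wild-type arrays for 4 of the 20 kept probe sets, against 14.6% of all kept probe sets. They read Egr3, Nr4a2 and Klf6, the last with 2 probe sets of types that can bind several transcripts. The brightest probe set of the gene was among them only for Egr3. Both lay below for 1 of the 20, the brightest of Egr2, against 14.9% of all. On the brightest probe sets, 6 members had a genotype difference nearer to 0 than its standard error, namely Egr1, Nr4a1, Klf2, Klf4, Klf6 and Ier2. The standard error of 0.20 to 0.53 leaves room for differences of that size. Line number was not in this fit, so a member's difference by line number widens that standard error.

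**Figure D3:**
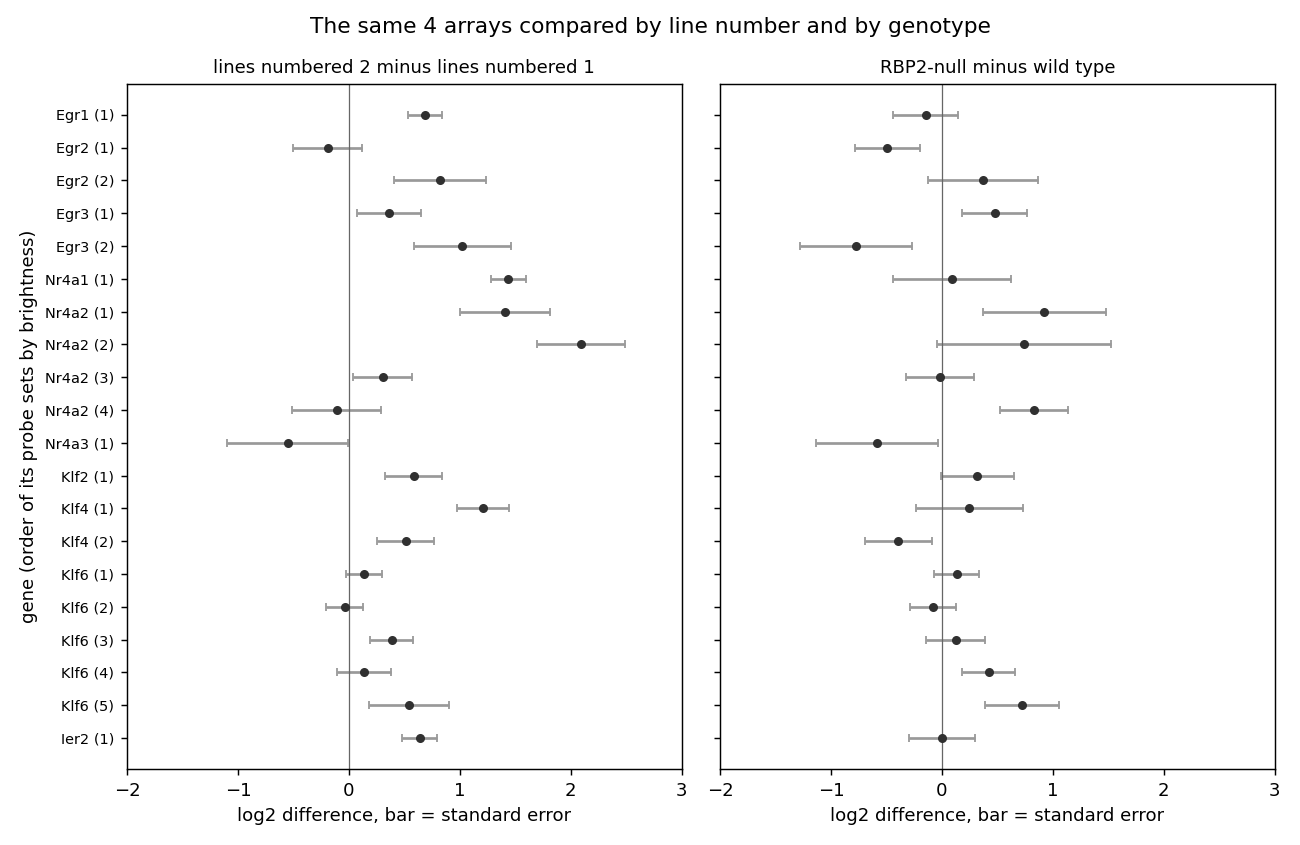
Log2 difference (x axis) of each of the 20 kept probe sets of the 10 genes (y axis, numbered by brightness within a gene), by line number on the left and by genotype on the right, with bars of 1 standard error from limma. By line number Nr4a1 lies at 1.44 and the second Nr4a2 probe set at 2.09, and by genotype the points scatter on both sides of 0.

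Other genes of the same early response did not share 1 direction by line number. The list held 24 genes, of which 23 were kept, with a median difference of -0.024. In both lines numbered 2, 10 of the 23 were higher and 7 lower, against 20.3% and 20.7% of all kept probe sets. At a limma adjusted p of 0.05 1 of 23 was called, Fos, which was higher. The 4 brightest genes of the list were the matrix-associated Ctgf and Cyr61, the prostaglandin synthase Ptgs2 and the kinase Plk2, with -0.67, -0.050, -0.12 and -0.39. Dusp5, a phosphatase of ERK, was the lowest of the list at -1.56 ± 0.18 (SE), with a limma adjusted p of 0.0576.

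Fos, the AP-1 subunit, was singled out here after its values were seen. It had normalized log2 signals of 7.99 and 11.02 in wild-type lines 1 and 2 and of 8.04 and 11.49 in RBP2-null lines 1 and 2, so it was high in both lines numbered 2, as Nr4a1 was. The difference was 3.24 ± 0.18 (SE), with a limma adjusted p of 0.00172, or 0.430 with 1 prior variance for all probe sets. The other Fos and Jun genes of the list were also named after their values were seen. They had 2.44 for Fosb, 1.34 for Jun, 0.44 for Junb and -0.073 for Fosl1. That last value was 0.045 and 0.053 relative to the median shift without scaling and with median-centred arrays.

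Partners of the members had these values. The Egr corepressors Nab1 and Nab2 had 0.14 ± 0.16 and 0.49 ± 0.22 (SE) by line number, Sp1, which binds similar GC-rich sites, had 0.040, and Egr4 had 0.092. Rxrb and Rxra, dimer partners of Nr4a receptors, had 0.16 and 0.037. Of 15 kept regulators upstream, among them SRF, its cofactors, MEK and MEF2 genes, 4 were higher and 5 lower in both lines numbered 2. Over all kept probe sets the shares were 20.3% and 20.7%. The median of these 15 regulators was 0.0055. The brightest, Elk3, Mef2a, Map2k1 and Mkl1, had 0.042, -0.28, -0.094 and -0.34. Larger differences, named after they were seen, ran both ways, with -0.95 ± 0.29 (SE) for the kinase Map2k5, -0.91 ± 0.32 (SE) for Mef2d and 0.73 ± 0.28 (SE) for the kinase Map2k2. None of these regulators passed the threshold.

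The other Klf genes had a median of -0.18 over 12 kept, with 1 higher and 4 lower in both lines numbered 2. Over all kept probe sets 20.3% were higher and 20.7% lower in this way, beside which each count of this paragraph stands. Klf3, Klf13, Klf9 and Klf5 had -0.0011, -0.39, 0.48 and 0.038. Reported Egr1 targets had a median of -0.059 over 9 kept, with 1 higher (Nab2) and 3 lower, and the brightest of them, the matrix protein Thbs1, the protease Mmp14 and tissue factor F3, had -0.29, -0.059 and -0.97. Reported Klf2 and Klf4 targets were lower in both lines numbered 2 for 3 of 4 kept, with -0.39 for the CDK inhibitor Cdkn1a and -0.26 for the receptor S1pr1. The third, Nos3, was dim, with deposited signals of 24.9 and 27.2 in wild-type lines 1 and 2 and of 25.9 and 15.7 in RBP2-null lines 1 and 2. It had -0.68 ± 0.46 (SE), with -0.19 in wild type and -1.17 in RBP2-null cells. Thrombomodulin (Thbd) had -0.20 and overlapped. Of 7 proliferation genes, 3 were higher and 1 lower, with -0.47 for Cdk1 and 0.67 for Top2a. None of the genes in these lists other than Fos passed the threshold, and the lists were drawn up with earlier results of these data known.

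**Figure D4:**
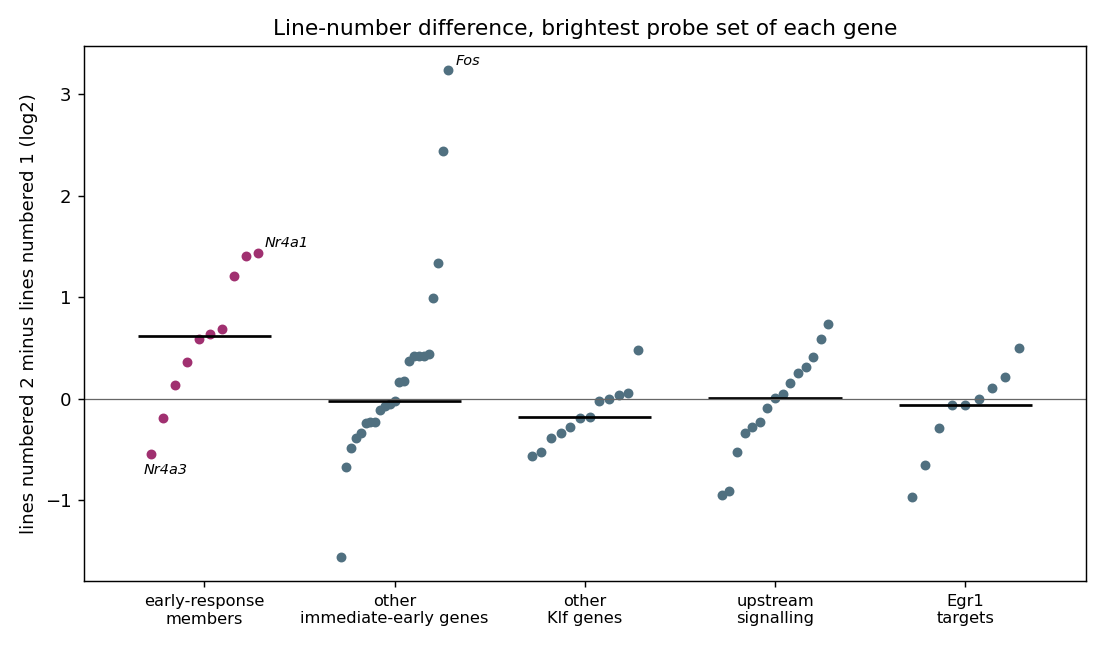
Log2 difference of lines numbered 2 minus lines numbered 1 (y axis) for the brightest kept probe set of each gene, as points in order within each of 5 gene groups (x axis), with the group median as a bar. The median is 0.61 for the 10 members and -0.024 for other immediate-early genes, where Fos lies at 3.24.

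All genes other than the members, those of the lists included, were ranked by how closely their 4 normalized values followed a member. The measure was the root mean square difference of the profiles after each was centred on its mean, and the 5 closest genes are named. For Nr4a1, whose own range over the arrays was 1.53, they were Rbm39, Fam171a2, Fbn2, Mest and Gfap, at 0.044 to 0.058. For Egr1, with a range of 0.89, they were Prrc2c, Hnrnpu, Anp32a, Epb41l2 and Add3, at 0.011 to 0.033. For Klf4, with a range of 1.54, they were Pink1, Rabep1, Adamtsl2, Malat1 and Arhgap20, at 0.044 to 0.094. The profiles rest on 4 arrays that all genes share, the likeness was not tested, and several of these genes are dim, such as Prrc2c with log2 signals from 4.51 to 5.39.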

How the data were processed

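The deposited values are linear signal intensity, for 45101 probe sets on each array, and per the labels the RNA was biotin-labelled total RNA on Affymetrix arrays. The sources used here do not say how the authors summarised, background-corrected or scaled them. The 64 control probe sets were left out. Trimmed means differed by up to 2.46 times, so linear values were quantile normalized, 9 was added and log2 taken, which understates differences of dim probe sets. The upper 60% by mean over the 4 arrays, 27022 probe sets, were fitted by lmFit and by eBayes with a mean-dependent prior (limma 3.58.1, R 4.3.3), by genotype and by line number separately. Tests were two-sided, with Benjamini-Hochberg adjustment over all kept probe sets and a threshold of 0.05. The fit was tested on simulated data.

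Symbols came from the platform annotation, with 1 symbol for 34945 probe sets, several for 932 and none for 9160, and only the first kind was named. Named genes were all members, the 4 brightest genes of a list, the 5 nearest profiles and Kdm5a. AP-1 genes, Dusp5, Map2k5, Mef2d, Map2k2 and a few other list and marker genes were named after their values were seen. Members, lists and motifs were chosen with earlier results of these data known. The number of arrays limits the precision. Alternatives covered the pseudocount, filter, scaling, variance model and leaving out probe sets of the x and s types (which may bind more than 1 transcript). They also covered a fit with both genotype and line number, and each array left out.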

Additional observations from a re-analysis of the deposited data

Results flagged for a closer look

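The line-number difference differed in sign between the genotypes for the brightest probe set of 2 members. For Egr2, line 2 minus line 1 was 0.26 on the log2 scale in wild type and -0.64 in RBP2-null cells. For Nr4a3 it was -1.58 in wild type and 0.48 in RBP2-null cells. With 1 array per line, these differences between genotypes were not tested. Over all 27022 kept probe sets, 11994 differed in sign in the same way.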

How the results depend on the processing

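The line-number count over all probe sets was 1 and depended on the processing. It was 11 with a pseudocount of 32, 16 over the upper 40% of probe sets, 605 (all higher) without scaling, 17 with median-centred arrays, 0 in limma with 1 prior variance (2052 at an unadjusted p under 0.05) and from 1 to 1223 with an array left out, reaching 209 without wild-type line 1 and 1223 without RBP2-null line 1. The genotype count was 1, and it was 0 in limma without the filter, without scaling and with 1 prior variance (1653, 165 and 973 at an unadjusted p under 0.05), 2 with median-centred arrays and from 0 to 41 with an array left out, 41 without wild-type line 2. Without scaling the members' median was 1.40 by line number and 0.61 by genotype, or 0.66 and 0.22 relative to the shift of all probe sets, and with median-centred arrays 0.87 and 0.41, or 0.67 and 0.23. With an array left out it ran from 0.51 to 0.67 by line number and from -0.27 to 0.45 by genotype. Of 20 member probe sets, 5 were called by line number without scaling, and 1 with a pseudocount of 32, over the upper 40% and with median-centred arrays. By genotype 0 were called by limma in any of these settings. Of 1358 values of other named genes, 1205 moved by less than the spread between lines or kept their call, 152 moved more and 1, Fos with 1 prior variance, lost its call. The causes were not tested.

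With genotype and line number in the same fit, 547 probe sets were called by line number (326 higher, 221 lower) and 46 by genotype (25 higher, 21 lower). Of the member probe sets, 5 were called by line number in that fit. Those were Egr1 with an adjusted p of 0.0059, Nr4a1 with 2.7e-07, Nr4a2 with 0.0021 and 8.4e-05 and Klf4 with 0.00060, all from limma. Both terms fitted to 4 arrays leave each probe set little spread of its own. The p-values and counts of that fit thus rest mostly on the spread limma pools over all probe sets. The members were chosen with these differences known, so these values describe that choice and support nothing beyond it. Deviations of lines of the same number correlated at 0.109 across probe sets over only 2 pairs, and nothing in the labels ties them, so the numbers were not taken as pairs.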
